A study of Mus musculus with 24 samples.

Results

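The 7 genes Brsk2, Eya1, Mapt, Nrg1, Perp, Rest and Sort1 were followed through the cytokine response of MIN6 cells. The study picked them, among others, as predicted targets of miR-146a-5p and measured them by qRT-PCR. It reported differential expression by that assay for Brsk2, Eya1, Mapt, Nrg1 and Perp, and not for Rest and Sort1. The 7 genes were taken by symbol from a table of 17696 genes, and each symbol matched 1 row. MIN6 is an insulinoma line of mouse β cells, and the 24 libraries came from 3 stable lines made with lentiviral vectors. Scr carried a scrambled sequence, ZIP an anti-sense inhibitor of miR-146a-5p, and OE a vector that overexpresses it. Each line was sequenced without cytokines (Scr, ZIP, OE) and after 24 h with IL-1β (5 ng/ml), TNFα (10 ng/ml) and IFNγ (100 ng/ml) (Scr+Cy, ZIP+Cy, OE+Cy), with 4 libraries in each of the 6 groups. The lines had been grown from single puromycin-resistant clones, so an effect of the line and of its clone cannot be told apart. The OE vector (shMIMIC, with a red reporter) also has another backbone than the Scr and ZIP vectors (miRZip, with a green reporter). The level of miR-146a-5p itself was not analysed here. By the study's qRT-PCR it was higher in untreated OE than in Scr and unchanged in untreated ZIP. Cytokines raised it in all 3 lines there, by the largest factor in Scr.

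A microRNA guides the Argonaute protein to mRNAs, mostly through pairing of its seed, the bases near its 5′ end, with the 3′ UTR, and the paired mRNA is then usually destabilized or translated less. miR-146a is known as a microRNA induced by NF-κB signalling. The 7 genes act at different places in the cell. Nrg1 encodes neuregulin 1, a ligand of the ErbB receptors. Sort1 encodes sortilin, a VPS10 receptor that sorts proteins between the Golgi and endosomes, and Perp a tetraspan membrane protein induced by p53 that takes part in apoptosis and in desmosomes. Brsk2 encodes a kinase of the AMPK-related family known from neuronal polarity, and Mapt the microtubule-associated protein tau. Eya1 encodes a phosphatase that is a coactivator of sine oculis homeobox factors, and Rest a repressor of neuronal genes.

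The 22-base mmu-miR-146a-5p (RefSeq, GRCm38.p6, chr11:43374435-43374456, minus strand) is shown with its seed, positions 2 to 8, in capitals, because its reverse complement is what was searched for in the 3′ UTRs:
mmu-miR-146a-5p: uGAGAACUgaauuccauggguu
The 7-base match AGTTCTC was found on the sense strand of an annotated 3′ UTR in 5 of the 7 genes, against 11.9% of 21005 genes with a 3′ UTR. The study had predicted its targets from this seed, so a share above that of all genes was built into the choice. The matches lie in Brsk2, Mapt, Nrg1, Rest and Sort1, with 2 in Nrg1. They are shown in capitals in 30 bases of the reference (GRCm38, the assembly of mm10), because these are the stretches through which the prediction would act:
Brsk2, chr7:142001684-142001713, plus strand: cctgtcctgggcctcAGTTCTCagaagcag
Mapt, chr11:104329104-104329133, plus strand: aaagctgctttactgAGTTCTCaagtttgg
Nrg1, chr8:31816082-31816111, minus strand: cactggtcacagggcAGTTCTCtgtgtgta
Nrg1, chr8:31817521-31817550, minus strand: tcccaatataaaatgAGTTCTCtctactct
Rest, chr5:77286041-77286070, plus strand: tgtgatagcatctgcAGTTCTCtccctccc
Sort1, chr3:108360967-108360996, plus strand: ccgaattcctagtgcAGTTCTCattctccg
The match in Brsk2, Mapt and Sort1 is followed by an A. The Rest match lies past the end of the Rest span in the count table (chr5:77265494-77283698), in a longer 3′ UTR of the GENCODE annotation. Eya1 and Perp held no match to AGTTCTC in an annotated 3′ UTR. The other 7-base form, a match to positions 2 to 7 followed by an A, was not searched for. A match of 6 bases to positions 2 to 7 was present in all 7 genes and in 31% of the 21005 genes. A match is a description of the sequence and not evidence of binding.

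Between 26657792 and 37168232 reads per library were assigned to genes (median 30701023). The cytokine treatment was visible in each line, and most in OE. Irf1, an interferon-induced transcription factor, was at 28.3 ± 1.9 CPM (reads of the gene scaled to the library total, SD, n = 4) in Scr and 411.6 ± 31.6 in Scr+Cy. It rose by 3.86 on the log2 scale in Scr, 3.75 in ZIP and 5.15 in OE. Nos2, the inducible nitric oxide synthase, was at 0.30 ± 0.32 in OE and 791.2 ± 145.4 in OE+Cy. It reached 25.0 ± 11.1 CPM in Scr+Cy and 87.8 ± 39.5 in ZIP+Cy, with log2 rises of 7.68 in Scr, 6.37 in ZIP and 11.4 in OE. Whether the responses of the 7 genes in OE go with this larger response was not tested. All 8 β cell markers checked were present in the libraries. The summed level of 5 fibroblast markers was 17.6 CPM in Scr replicate 1, 50.9 in ZIP replicate 1 and 57.3 in Scr+Cy replicate 1, and at most 5.47 in the other libraries. A set of 6 markers of peripheral nerve summed to 85.8, 118 and 176 CPM in these libraries, against 49.1 to 101 in the others. Where a call among the 7 genes changed without these 3 libraries, or a count of the gene lists described below moved by more than 1.5 times, both values are given. Other markers differed between the lines. Of 5 acinar and duct cell markers, 3 were in the table, and they summed to 12.4 to 24.2 CPM in OE and OE+Cy and to at most 1.14 CPM in the other libraries. The keratin gene Krt19 made up this sum in the OE line, where Cela1 and Sox9 had means of 0. Ppy, the pancreatic polypeptide hormone, lay between 2.27 and 10.9 CPM in OE and OE+Cy and was at most 0.0349 CPM elsewhere. The 3 α cell markers of the table, of 4 checked, summed to 601 to 1160 CPM in OE and 98.4 to 371 CPM in OE+Cy, against 1530 to 1980 in Scr and 869 to 1100 in Scr+Cy. In ZIP they summed to 3810 to 4760 CPM and in ZIP+Cy to 2150 to 3030, where the mean of Ttr was above and that of Gcg below Scr and Scr+Cy. Irx2 went the other way in the OE line, with means of 0 CPM in Scr, 2.86 in OE and 3.59 in OE+Cy. The β cell factors Mafa, Pdx1 and Nkx6-1 had means of 791, 768 and 213 CPM in Scr+Cy. In OE+Cy they had 358, 337 and 115 CPM. The other β cell markers (Ins1, Ins2, Iapp, Slc2a2, Slc30a8) had higher means in OE+Cy than in Scr+Cy, such as 4660 and 670 CPM for Ins1. The 8 β cell markers summed to 15700 to 21500 CPM in Scr and 16300 to 17700 in Scr+Cy. In OE they summed to 38200 to 42000 CPM, and in OE+Cy to 24300 to 31600. The part of these markers in the results of the 7 genes was not tested.

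The levels differed widely among the genes. Per kilobase of exon, Sort1 (51.3 CPM per kb) and Mapt (37 CPM per kb) were the most abundant of the 7 in Scr, followed by Perp (6.92) and Eya1 (3.79), with Nrg1 (0.331), Brsk2 (0.305) and Rest (0.172) far lower. The rarest values rest on few reads: Nrg1 had 6 to 11 reads in the OE libraries and Rest 7 to 11 reads in the ZIP libraries. In bulk libraries such as these, fewer cells that express a gene and less RNA per cell cannot be told apart.

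**Figure D1:**
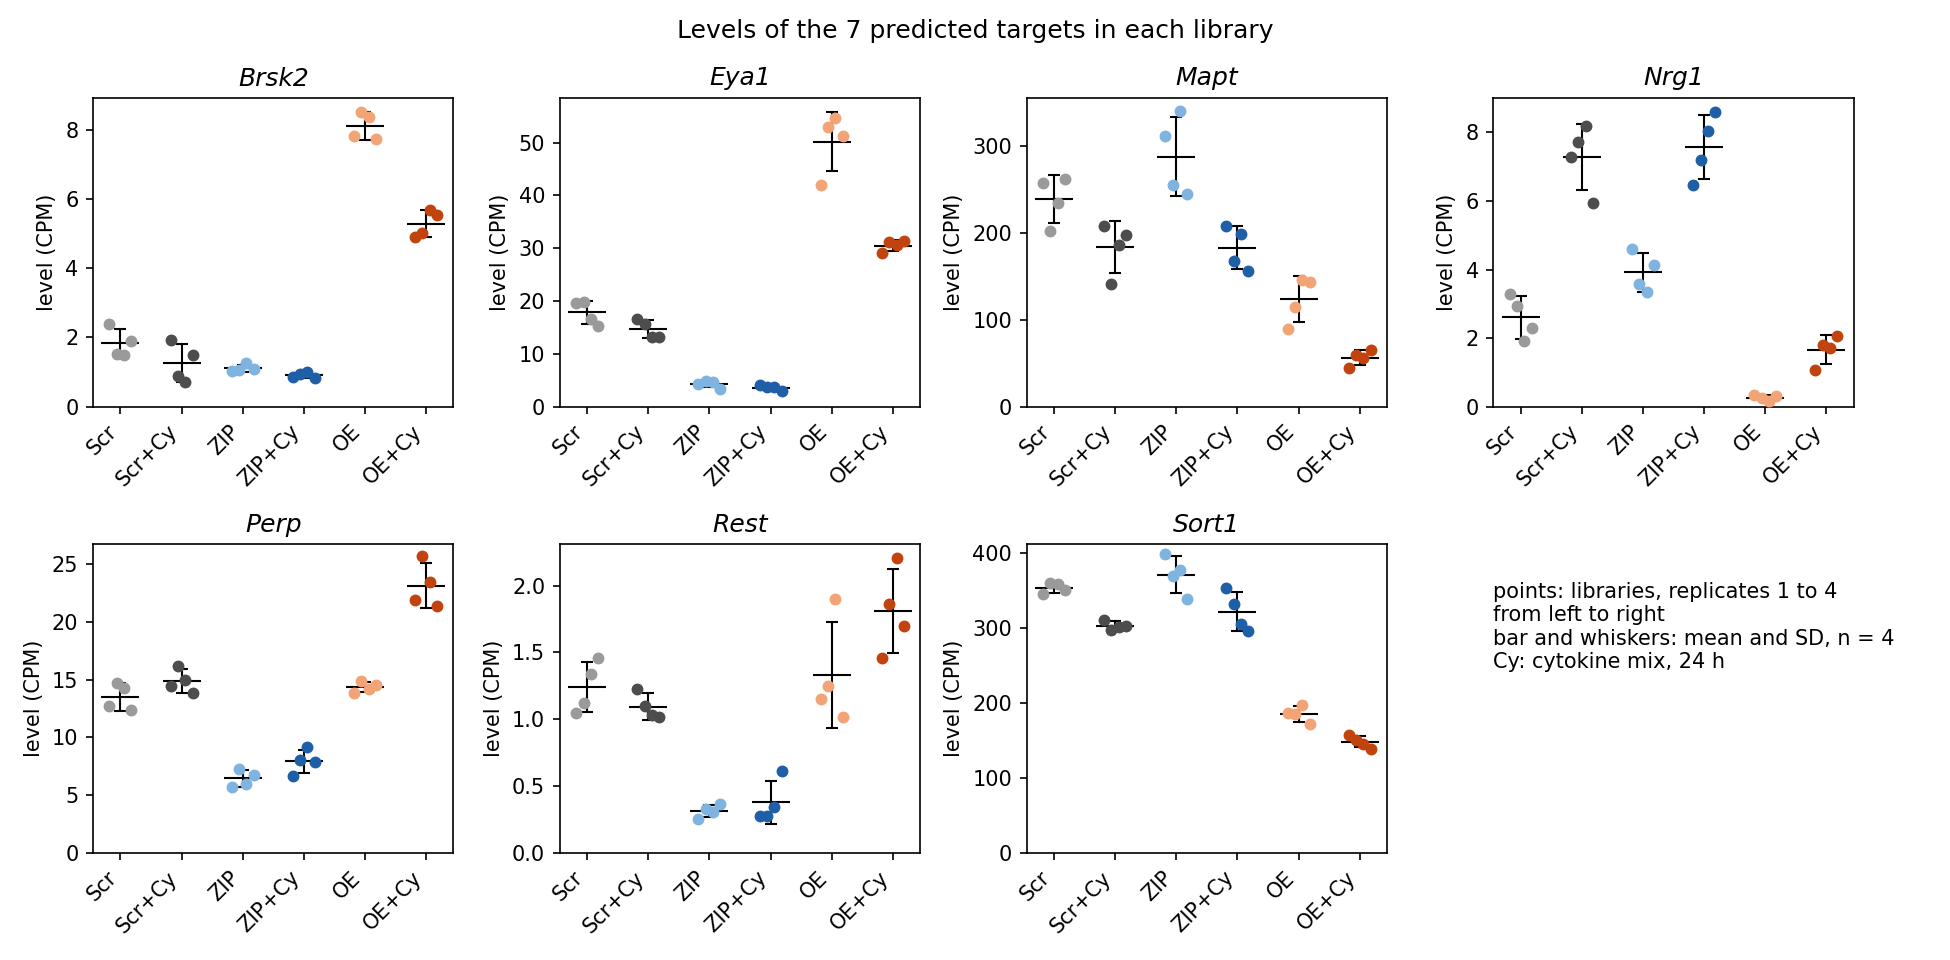
Level of each of the 7 genes in CPM (y axis, from 0) in the 24 libraries, by group (x axis). Points are libraries, and bars with whiskers are the mean and SD of 4. The OE and OE+Cy libraries lie above those of the other lines for Brsk2 and Eya1 and below them for Sort1.

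The first question was how each gene responded to cytokines within a line. A gene was called when its adjusted p value was under 0.05 and its fold change at least 1.5. The untreated libraries in these responses are the ones on which the study chose the genes by their line differences. In Scr+Cy versus Scr, 1 of the 7 genes was called (Nrg1, higher), where 7.57% of all genes were (5.96% higher, 1.61% lower). In ZIP+Cy versus ZIP, 2 were called (Mapt, Nrg1) against 9.7% of all genes (6.12% higher, 3.58% lower). In OE+Cy versus OE, 5 were called (Brsk2, Eya1, Mapt, Nrg1, Perp) against 19.2% of all genes (11.8% higher, 7.37% lower). Treated and untreated libraries did not overlap for 2, 3 and 6 of the 7 genes in Scr, ZIP and OE, where this held for 21.2%, 26.2% and 40.2% of all genes. The median size of the log2 fold change in Scr, ZIP and OE was 0.28, 0.29 and 0.69 for these genes and 0.17, 0.22 and 0.33 over all genes.

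**Figure D2:**
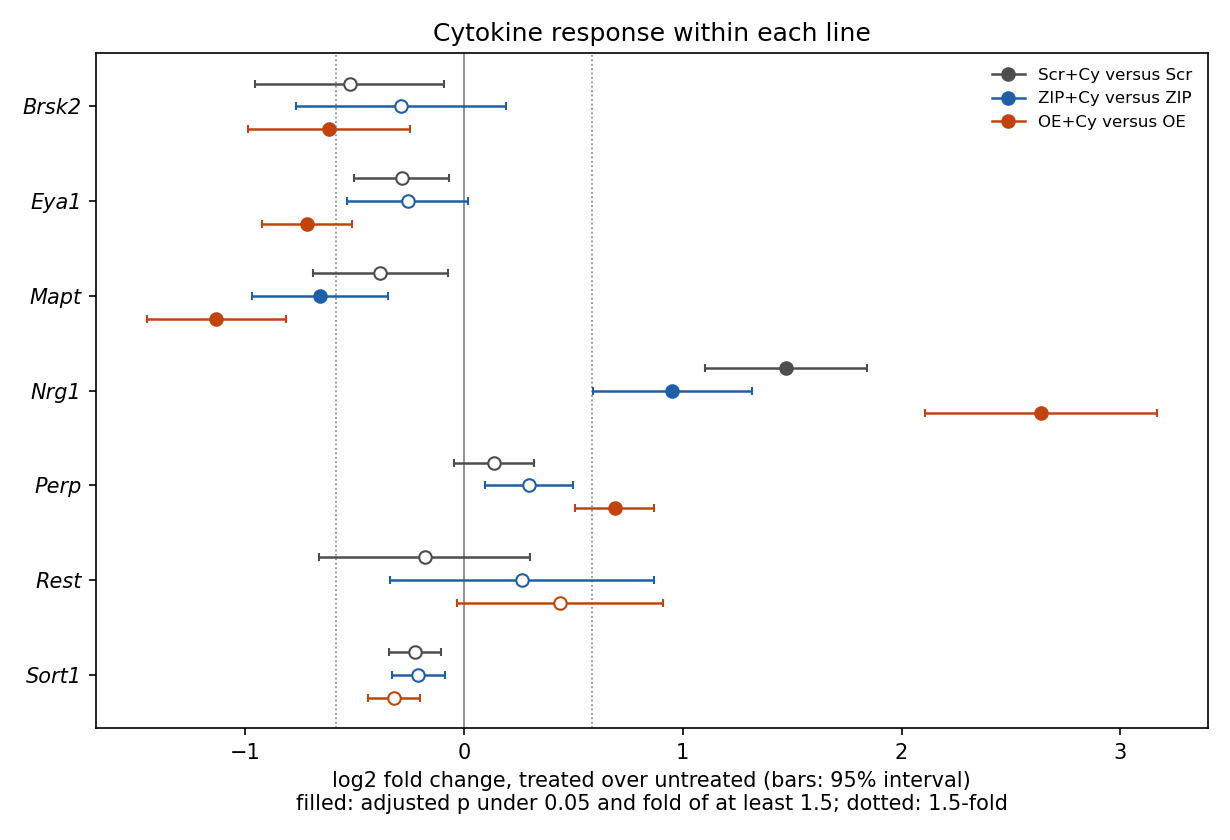
Log2 fold change of treated over untreated cells (x axis) for each gene (y axis) in Scr, ZIP and OE, with 95% intervals. Filled points passed an adjusted p value of 0.05 and a 1.5-fold change (dotted lines). Nrg1 was called in all 3 lines, from 0.95 in ZIP to 2.64 in OE.

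Ratios within a replicate number had 1 sign in all 12 numbered pairs for 6 of the 7 genes: Brsk2, Eya1, Mapt and Sort1 were lower, and Nrg1 and Perp higher, in each treated library than in the untreated library of its number. The size of these ratios differed, from at most 0.44 on the log2 scale in size for Sort1 to between 0.49 and 3.37 for Nrg1. For Rest, 8 of the 12 ratios were above 0. The 12 pairs are 4 from each of the 3 lines. The share of all genes with 1 sign in all 12 pairs was not computed. Whether the responses differed between lines was tested as an interaction, with calls at an adjusted p value under 0.05. The OE response differed from the Scr response for 4 of the 7 genes (Eya1, Mapt, Nrg1, Perp), where 20% of all genes did. For the ZIP response against the Scr response the count was 0 of 7, where 0.0565% of all genes were called. In edgeR, 1 gene of the 7 had an unadjusted p value under 0.05 there (Nrg1, 0.0469), and DESeq2 also called 0. Both interactions use the same Scr and Scr+Cy libraries.

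**Figure D3:**
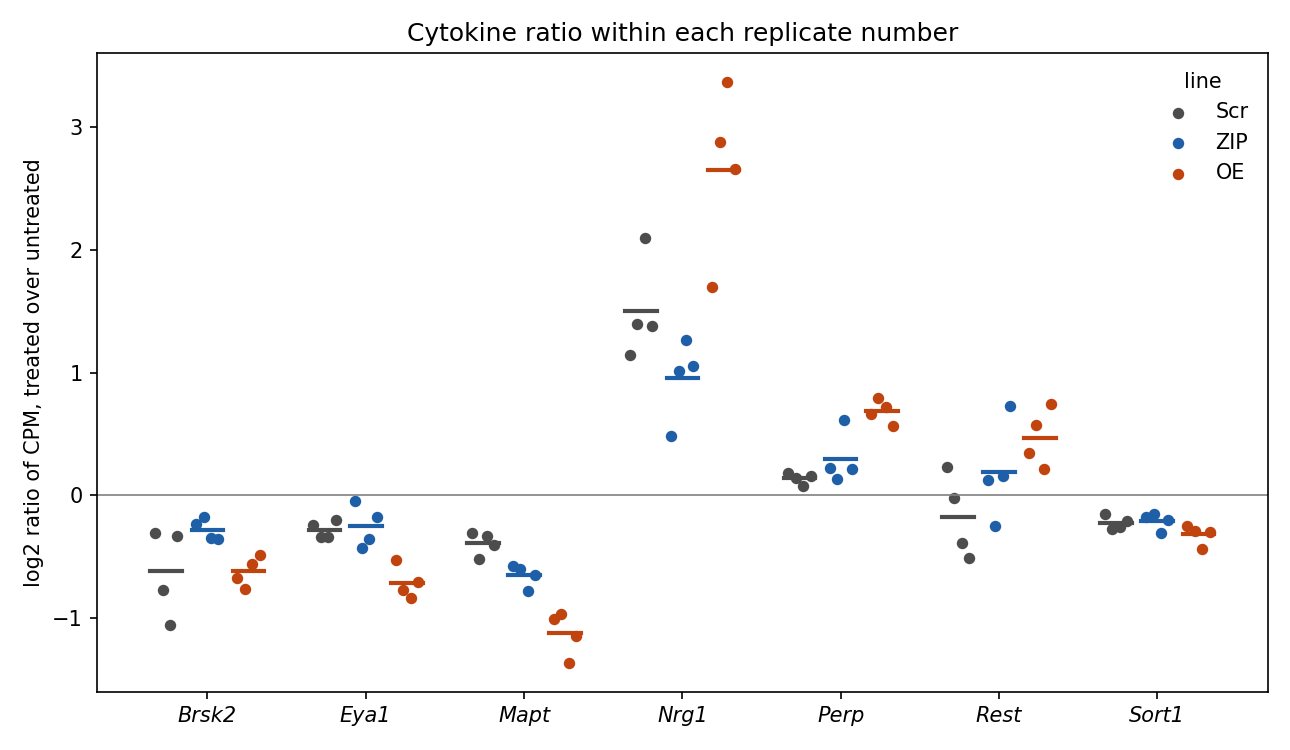
Log2 ratio of CPM in the treated over the untreated library of the same line and replicate number (y axis), for each gene and line (x axis). Points are the 4 pairs of a line and short lines their mean. The points of Nrg1 and Perp all lie above 0 and those of Brsk2, Eya1, Mapt and Sort1 all below it.

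The second question was how the lines differed under cytokines. The study's filter on line differences used the untreated libraries, while the functional terms from which its choice started also drew on treated ones. The treated libraries are of the same lines, and line differences seen without cytokines may carry over to them. The counts of the 7 genes below are therefore not independent of that choice. In OE+Cy versus Scr+Cy all 7 genes were called, 4 higher (Brsk2, Eya1, Perp, Rest) and 3 lower (Mapt, Nrg1, Sort1), where 26.7% of all genes were called (12.7% higher, 14% lower). Against ZIP+Cy all 7 were called in the same directions, where 27.3% of all genes were called (13.7% higher, 13.6% lower). This comparison shares its OE+Cy libraries with the former. In ZIP+Cy versus Scr+Cy, 3 of the 7 were called, all lower in ZIP+Cy (Eya1, Perp, Rest), where 12.6% of all genes were called (5.89% higher, 6.7% lower). Libraries of the lines compared did not overlap for 7, 7 and 3 of the 7 genes in OE+Cy versus Scr+Cy, OE+Cy versus ZIP+Cy and ZIP+Cy versus Scr+Cy, where this held for 46.2%, 46.5% and 27.6% of all genes. Of the 5 genes with a match to AGTTCTC, Mapt, Nrg1 and Sort1 were lower and Brsk2 and Rest higher in OE+Cy than in Scr+Cy. Both genes in which this match was not found (Eya1, Perp) were higher.

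**Figure D4:**
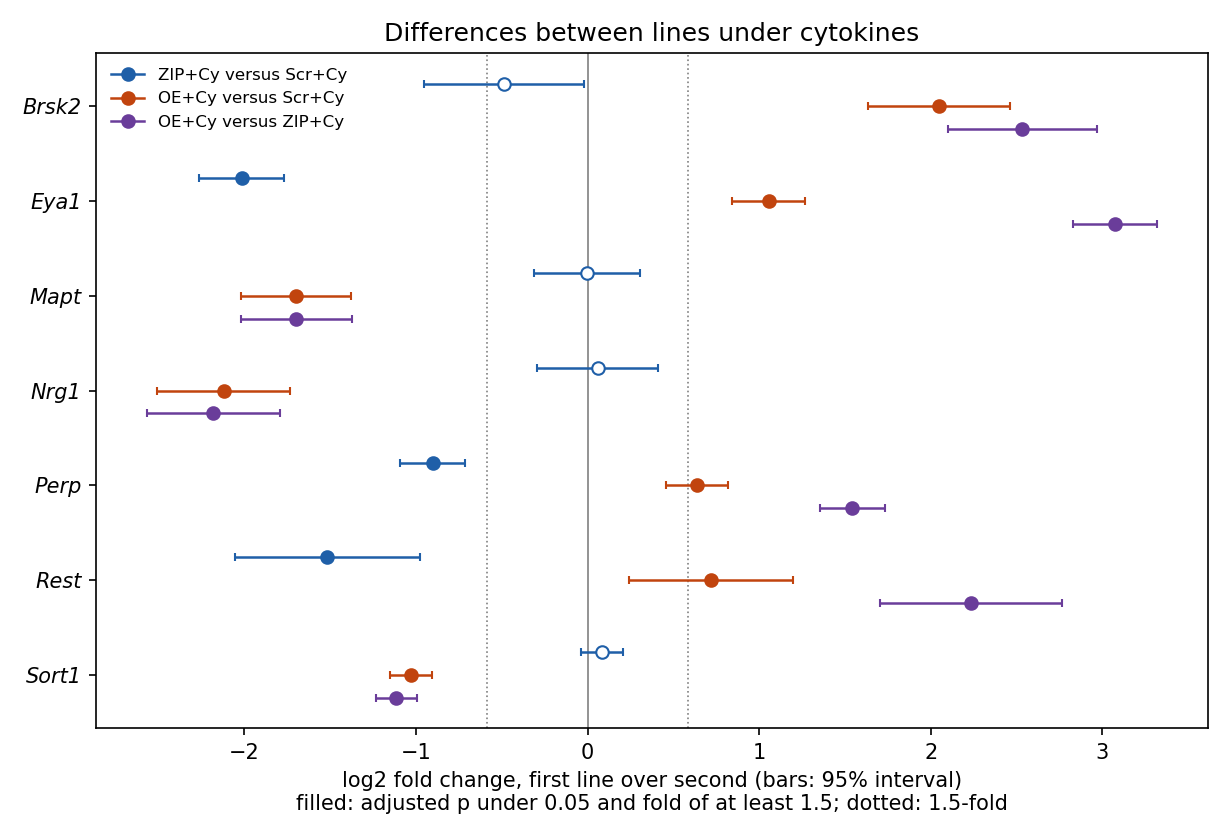
Log2 fold change between lines under cytokines (x axis) for each gene (y axis), with 95% intervals. Filled points were called. Brsk2, Eya1, Perp and Rest lie to the right of 0 and Mapt, Nrg1 and Sort1 to the left in both comparisons with OE+Cy.

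Nrg1, the secreted and membrane-bound ligand, had the largest cytokine responses of the 7 genes in all 3 lines. Its level was 3.29, 2.93, 1.91 and 2.29 CPM in the Scr libraries, replicates 1 to 4, and 7.27, 7.71, 8.17 and 5.95 CPM in Scr+Cy. In ZIP it was 4.61, 3.57, 3.35 and 4.13 CPM, and 6.46, 7.19, 8.05 and 8.58 CPM in ZIP+Cy. In OE it was 0.332, 0.245, 0.166 and 0.327 CPM, and 1.08, 1.79, 1.71 and 2.07 CPM in OE+Cy. Treated and untreated libraries did not overlap in any line. Nrg1 rose by 1.47 on the log2 scale in Scr (SE 0.18, adjusted p = 8.81e-07), by 0.95 in ZIP (SE 0.18, adjusted p = 2.09e-04) and by 2.64 in OE (SE 0.26, adjusted p = 9.4e-09). The rise in OE was larger than that in Scr by 1.16 (SE 0.32, adjusted p = 0.0112).

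Despite that rise, Nrg1 was lower in OE+Cy than in the other treated groups. It was 4.35-fold lower in OE+Cy than in Scr+Cy (log2 −2.12, SE 0.19, adjusted p = 1.1e-09) and 4.53-fold lower than in ZIP+Cy (log2 −2.18, SE 0.19, adjusted p = 6.28e-10). The untreated OE level was 9.75-fold below that of Scr, given without a test because the study chose the genes on this difference. ZIP+Cy and Scr+Cy overlapped, with a difference of 0.06 and a 95% interval of −0.29 to 0.41. In the order of group means, ZIP+Cy and Scr+Cy overlapped, as did Scr and OE+Cy, while the other neighbours in the order did not. The study's qRT-PCR, another assay, gave Nrg1 as higher in ZIP cells under cytokines and as unchanged in OE cells. The lower OE values here differ from that, and the cause was not tested.

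The list of other neuregulins, EGF family ligands, ErbB receptors and their regulators held 18 genes of the table. Of them, 1 was called lower in Scr+Cy versus Scr, 2 higher and 1 lower in ZIP+Cy versus ZIP, and 3 higher and 2 lower in OE+Cy versus OE. The last are 16.7% and 11.1% of the list, near the 11.8% and 7.37% of all genes called higher and lower. For this and the later lists, shares over all genes in the other comparisons are those given above. Without the 3 libraries with connective tissue markers, 0 were called in Scr+Cy versus Scr and 5 were higher in OE+Cy versus OE. Tgfa, another EGF family ligand, rose from 40.7 ± 1.9 to 69.7 ± 2.5 CPM in ZIP with cytokines (log2 0.78, adjusted p = 1.08e-10). Hbegf, a heparin-binding ligand of the same family, fell from 27.3 ± 3.7 to 13.6 ± 1.7 CPM in OE (log2 −1.01, adjusted p = 1.19e-06). Between lines under cytokines, 1 was called higher and 5 lower in OE+Cy versus Scr+Cy, 2 higher and 6 lower in OE+Cy versus ZIP+Cy, and 1 in each direction in ZIP+Cy versus Scr+Cy. The first are 5.56% and 27.8% of the list (12.7% and 14% of all genes). The fit that omits these 3 libraries called 3 higher in OE+Cy versus Scr+Cy. Nrg2, a paralogue of Nrg1, was at 1.2 to 1.75 CPM in Scr+Cy and at 0 to 0.135 CPM, or 0 to 4 reads, in OE+Cy (adjusted p = 4.57e-09). Erbin, a protein that binds ErbB2, was higher in OE+Cy (174.6 ± 19.8 CPM) than in ZIP+Cy (97.3 ± 8.1 CPM, log2 0.84, adjusted p = 1.17e-10).

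Sort1, the sorting receptor, was slightly lower with cytokines in each line and lower in OE than in the other lines. It lay between 345 and 360 CPM in Scr and between 298 and 311 CPM in Scr+Cy. In ZIP it lay between 339 and 399 CPM, and between 296 and 353 CPM in ZIP+Cy. In OE it lay between 172 and 197 CPM, and between 139 and 158 CPM in OE+Cy. Treated and untreated libraries did not overlap in Scr and OE and overlapped in ZIP. The log2 change was −0.22 in Scr (SE 0.06, adjusted p = 0.00819), −0.21 in ZIP (SE 0.06, adjusted p = 0.0095) and −0.32 in OE (SE 0.06, adjusted p = 8.28e-05), each past the p threshold and under the 1.5-fold limit. The OE and Scr responses differed by −0.10, with a 95% interval of −0.27 to 0.07.

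The line difference of Sort1 was larger than its response. Sort1 was 2.04-fold lower in OE+Cy than in Scr+Cy (log2 −1.03, SE 0.06, adjusted p = 4.21e-13) and 2.17-fold lower than in ZIP+Cy (log2 −1.11, SE 0.06, adjusted p = 8.8e-14), and the untreated OE and Scr values differed by −0.93. Between ZIP+Cy and Scr+Cy the difference was 0.08, with a 95% interval of −0.04 to 0.20. The 22 other VPS10 receptors, retromer subunits, sorting adaptors and related genes were called 2 higher and 2 lower in Scr+Cy versus Scr and in ZIP+Cy versus ZIP, and 3 higher and 3 lower in OE+Cy versus OE. Sorcs1, another VPS10 receptor, fell from 6.09 ± 1.99 to 2.04 ± 0.83 CPM in ZIP (log2 −1.57, adjusted p = 0.00283). Under cytokines, 2 were higher and 5 lower in OE+Cy versus Scr+Cy, 1 higher and 4 lower in ZIP+Cy versus Scr+Cy, and 3 in each direction in OE+Cy versus ZIP+Cy. The first are 9.09% and 22.7% of the list (12.7% and 14% of all genes). Sorcs1 was at 0.871 to 3.45 CPM in Scr+Cy and at 0.0339 to 0.182 CPM in OE+Cy (adjusted p = 1.65e-06). Ap1m2, an adaptor subunit of epithelial cells, was at 23.6 to 29.4 CPM in OE+Cy and at 0 to 1 read in the ZIP+Cy libraries (adjusted p = 2.88e-17). Without cytokines it was at 21.9 to 28 CPM in OE and at 0 to 1 read in ZIP.

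Perp, the p53-induced membrane protein, rose in OE with cytokines and was low in ZIP. Its level was 12.7, 14.7, 14.3 and 12.4 CPM in Scr, and 14.4, 16.2, 15.0 and 13.8 CPM in Scr+Cy. In ZIP it was 5.74, 7.29, 5.98 and 6.79 CPM, and 6.70, 8.02, 9.16 and 7.87 CPM in ZIP+Cy. In OE it was 13.8, 14.9, 14.2 and 14.5 CPM, and 21.9, 25.7, 23.4 and 21.4 CPM in OE+Cy. All OE+Cy libraries lay above every other library, and the ZIP and ZIP+Cy libraries below every library of the other lines. Perp rose by 0.69 in OE (SE 0.09, adjusted p = 5.71e-07). The change was 0.30 in ZIP (SE 0.10, adjusted p = 0.0243, under the fold limit) and 0.14 in Scr (SE 0.09, adjusted p = 0.331). The OE response was larger than that of Scr by 0.55 (SE 0.12, adjusted p = 0.00254).

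Perp was 1.56-fold higher in OE+Cy than in Scr+Cy (log2 0.64, SE 0.09, adjusted p = 1.22e-06), while untreated OE and Scr overlapped with a difference of 0.09. It was 1.87-fold lower in ZIP+Cy than in Scr+Cy (log2 −0.90, SE 0.09, adjusted p = 3.9e-08) and 2.91-fold higher in OE+Cy than in ZIP+Cy (log2 1.54, SE 0.09, adjusted p = 6.97e-13).

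The p53 pathway list held 21 genes of the table. In OE+Cy versus OE, 10 were called higher (47.6%, where 11.8% of all genes were called higher), with a median log2 fold change of 0.56 over the list and 0.02 over all genes. In Scr+Cy versus Scr and in ZIP+Cy versus ZIP, 6 were called higher (28.6%, where 5.96% and 6.12% of all genes were), with medians of 0.30 and 0.25. Fas, a death receptor, was at 0 to 5 reads in the OE libraries and at 20 to 69 reads in OE+Cy (adjusted p = 5.05e-05). Of the same list, 12 were called higher and 2 lower in OE+Cy than in Scr+Cy, and likewise 12 and 2 against ZIP+Cy. These are 57.1% and 9.52% of the list. Of all genes, 12.7% were higher and 14% lower against Scr+Cy, and 13.7% and 13.6% against ZIP+Cy. Eda2r, a TNF receptor family member, was at 0.0300 to 0.310 CPM in Scr+Cy and 16.3 to 26 CPM in OE+Cy (adjusted p = 5.35e-13). In ZIP+Cy versus Scr+Cy, 1 was higher and 2 lower, among them the kinase Plk2 (0.0691 to 0.230 CPM in ZIP+Cy and 0.661 to 1.76 in Scr+Cy, adjusted p = 3.36e-06). In the fit that omits the 3 libraries with connective tissue markers, 1 was lower there.

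Of 14 relatives of PERP and desmosome genes, 2 were called higher in OE+Cy versus OE and 1 higher in ZIP+Cy versus ZIP. That gene was Emp3, a tetraspan protein of the PMP22 family (0.80 ± 0.22 to 1.62 ± 0.36 CPM, log2 1.03, adjusted p = 0.0419). In Scr+Cy versus Scr the count was 0 in edgeR and in DESeq2, with 6 at an unadjusted p value under 0.05. Between lines under cytokines, 7 were higher and 3 lower in OE+Cy versus Scr+Cy, 6 higher and 4 lower in OE+Cy versus ZIP+Cy, and 1 higher and 4 lower in ZIP+Cy versus Scr+Cy. The first are 50% and 21.4% of the list (12.7% and 14% of all genes). With the 3 libraries with connective tissue markers omitted, 2 were higher in ZIP+Cy versus Scr+Cy and 1 was lower in ZIP+Cy versus ZIP. Pkp3, a plakophilin of desmosomes, was at 5.62 to 7.61 CPM in OE+Cy and at 0 to 3 reads in Scr+Cy (adjusted p = 1.38e-12). Without cytokines it was at 3.83 to 6.26 CPM in OE and at 0 to 1 read in Scr. Pmp22, which is also a protein of myelin, was at 0.442 to 1.18 CPM in OE+Cy and at 25.6 to 29.1 CPM in Scr+Cy replicates 2 to 4 (adjusted p = 7.02e-07). It was at 109 CPM in Scr+Cy replicate 1, the library with the highest fibroblast and nerve marker sums.

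Brsk2, the kinase, was high in OE and low in the other lines. Its level was 2.40, 1.52, 1.5 and 1.89 CPM in Scr, and 1.94, 0.895, 0.721 and 1.5 CPM in Scr+Cy. In ZIP it was 1.02, 1.06, 1.27 and 1.08 CPM, and 0.873, 0.933, 0.996 and 0.838 CPM in ZIP+Cy. In OE it was 7.80, 8.52, 8.36 and 7.73 CPM, and 4.90, 5.01, 5.68 and 5.53 CPM in OE+Cy. Libraries of OE and OE+Cy did not overlap with each other or with any other group. Brsk2 fell in OE by 0.62 on the log2 scale (SE 0.18, adjusted p = 0.00668). Without OE replicate 2 or without OE+Cy replicate 1 the change was −0.58, just under the fold limit. In ZIP the change was −0.29 (adjusted p = 0.401). In Scr it was −0.52 (SE 0.21, adjusted p = 0.0885), and without Scr+Cy replicate 1 it was −0.80 (adjusted p = 0.00536). Without the 3 libraries with connective tissue markers it was −0.64 (adjusted p = 0.0321).

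Under cytokines, Brsk2 was 4.13-fold higher in OE+Cy than in Scr+Cy (log2 2.05, SE 0.20, adjusted p = 6.14e-09) and 5.79-fold higher than in ZIP+Cy (log2 2.53, SE 0.21, adjusted p = 3.2e-10). ZIP+Cy differed from Scr+Cy by −0.49 (adjusted p = 0.117), and by −0.68 without Scr+Cy replicate 3 (adjusted p = 0.0187). Of 19 AMPK-related kinases and their upstream partners, 1 was called higher in Scr+Cy versus Scr and 1 in ZIP+Cy versus ZIP. The latter was the kinase Nuak1 (46.8 ± 2.3 to 91.3 ± 8.3 CPM, log2 0.96, adjusted p = 9.36e-09). For the OE response the count was 0 in edgeR and in DESeq2, with 7 of the 19 at an unadjusted p value under 0.05. Between lines under cytokines, 3 were lower in OE+Cy versus Scr+Cy (15.8%, where 14% of all genes were). In OE+Cy versus ZIP+Cy 2 were lower (with 1 higher there once the 3 libraries were left out). In ZIP+Cy versus Scr+Cy 1 was higher and 1 lower. The last 2 were Snrk (38.7 ± 1.7 CPM in ZIP+Cy and 23.2 ± 1.6 in Scr+Cy, log2 0.74, adjusted p = 1.58e-09) and the AMPK catalytic subunit gene Prkaa2 (0.42 ± 0.18 and 1.76 ± 0.50 CPM, log2 −2.05, adjusted p = 1.34e-04).

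Mapt, which encodes tau, was one of the 2 most abundant of the 7 genes and fell most in OE. Its level was 257, 202, 234 and 262 CPM in Scr, and 208, 141, 186 and 197 CPM in Scr+Cy. In ZIP it was 311, 255, 340 and 244 CPM, and 208, 168, 198 and 156 CPM in ZIP+Cy. In OE it was 89.7, 115, 146 and 143 CPM, and 44.6, 59.0, 56.6 and 65 CPM in OE+Cy. Treated and untreated libraries overlapped in Scr and not in ZIP and OE, and every OE+Cy library lay below every other library. Mapt fell by 1.13 in OE (SE 0.15, adjusted p = 1.64e-06) and by 0.66 in ZIP (SE 0.15, adjusted p = 0.0019). Without ZIP replicate 3 the change in ZIP was −0.57, under the fold limit (adjusted p = 0.00992). In Scr the change was −0.38 (SE 0.15, adjusted p = 0.0834). The OE response differed from that of Scr by −0.75 (SE 0.21, adjusted p = 0.0144).

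Mapt was 3.25-fold lower in OE+Cy than in Scr+Cy (log2 −1.70, SE 0.16, adjusted p = 1.87e-09) and 3.24-fold lower than in ZIP+Cy (log2 −1.70, SE 0.16, adjusted p = 1.79e-09), where the untreated OE and Scr values differed by −0.95. ZIP+Cy and Scr+Cy had nearly equal means (182.6 ± 24.8 and 183.1 ± 29.8 CPM), with a 95% interval of −0.31 to 0.31 for the difference. Of 22 other microtubule-associated proteins and tau kinases, 2 were called higher and 1 lower in Scr+Cy versus Scr and in ZIP+Cy versus ZIP, and 3 higher and 2 lower in OE+Cy versus OE. Leaving out the 3 libraries with connective tissue markers gave 2 lower in Scr+Cy versus Scr. Stmn4, a stathmin, rose from 0.81 ± 0.20 to 16.3 ± 2.9 CPM in OE (log2 4.31, adjusted p = 4.55e-14). Dclk1, a doublecortin-like kinase, fell from 60.6 ± 6.2 to 18.2 ± 4.4 CPM (log2 −1.74, adjusted p = 1.9e-07). In OE+Cy, 2 were higher and 5 lower than in Scr+Cy, and 1 higher and 6 lower than in ZIP+Cy, while 3 were higher in ZIP+Cy than in Scr+Cy. The first are 9.09% and 22.7% of the list (12.7% and 14% of all genes). Stmn4 was also higher in OE+Cy than in Scr+Cy (2.75 ± 0.63 CPM, log2 2.57, adjusted p = 3.7e-11). Stmn2, another stathmin, was lower in OE+Cy (2.89 ± 0.68 CPM) than in ZIP+Cy (10.7 ± 1.4 CPM, log2 −1.88, adjusted p = 1.57e-04).

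Eya1, the homeobox coactivator, separated the 3 lines with and without cytokines. Its level was 19.7, 19.8, 16.7 and 15.3 CPM in Scr, and 16.6, 15.6, 13.2 and 13.3 CPM in Scr+Cy. In ZIP it was 4.24, 4.92, 4.71 and 3.46 CPM, and 4.12, 3.66, 3.68 and 3.06 CPM in ZIP+Cy. In OE it was 42, 53, 54.6 and 51.2 CPM, and 29.1, 31.1, 30.6 and 31.3 CPM in OE+Cy. Every library of OE lay above those of Scr, and every library of Scr above those of ZIP, in both conditions. Eya1 fell by 0.72 in OE (SE 0.10, adjusted p = 2.09e-06). The change was −0.28 in Scr (SE 0.10, adjusted p = 0.0617) and −0.26 in ZIP (SE 0.13, adjusted p = 0.165). The OE response differed from that of Scr by −0.43 (SE 0.14, adjusted p = 0.0351). This call was lost when 1 of 8 libraries was left out (Scr replicates 3 and 4, OE replicates 2, 3 and 4, Scr+Cy replicates 1 and 2, or OE+Cy replicate 1), with values of −0.37 to −0.42 and adjusted p values of 0.052 to 0.0855, and without the 3 libraries with connective tissue markers (adjusted p = 0.0677).

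Under cytokines, Eya1 was 2.08-fold higher in OE+Cy than in Scr+Cy (log2 1.06, SE 0.10, adjusted p = 5.98e-09), 4.05-fold lower in ZIP+Cy than in Scr+Cy (log2 −2.02, SE 0.12, adjusted p = 4.55e-12) and 8.41-fold higher in OE+Cy than in ZIP+Cy (log2 3.07, SE 0.12, adjusted p = 3.28e-16). Of 13 other EYA, sine oculis homeobox, DACH and PAX genes of the table, 2 were called higher and 3 lower in OE+Cy versus OE. The counts were 0 in Scr+Cy versus Scr and in ZIP+Cy versus ZIP in edgeR, with 4 and 7 at an unadjusted p value under 0.05, and DESeq2 also called 0 in both. The edgeR fit that omits the 3 libraries called 1 lower in ZIP+Cy versus ZIP. Six2 rose from 2.92 ± 0.88 to 4.73 ± 1.56 CPM in OE (log2 0.70, adjusted p = 0.00713), and Six5 fell from 14.4 ± 1.0 to 8.56 ± 1.17 CPM (log2 −0.75, adjusted p = 3.73e-05). Between lines under cytokines, 3 were higher and 4 lower in OE+Cy versus Scr+Cy, 2 higher and 3 lower in OE+Cy versus ZIP+Cy, and 3 higher and 1 lower in ZIP+Cy versus Scr+Cy. The first are 23.1% and 30.8% of the list (12.7% and 14% of all genes). Six3, a homeobox gene, was at 28.9 ± 2.7 CPM in ZIP+Cy, above Scr+Cy (3.18 ± 0.69 CPM, log2 3.18, adjusted p = 2.59e-14) and OE+Cy (2.45 ± 0.55 CPM, adjusted p = 1.01e-15). Without cytokines it was at 35.9 ± 3.6 CPM in ZIP, 3.38 ± 0.57 in Scr and 2.43 ± 0.18 in OE.

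Rest, the repressor of neuronal genes, was the rarest of the 7 genes in Scr and was low in ZIP. Its level was 1.05, 1.12, 1.34 and 1.46 CPM in Scr, and 1.23, 1.10, 1.03 and 1.02 CPM in Scr+Cy. In ZIP it was 0.256, 0.328, 0.310 and 0.370 CPM, and 0.279, 0.277, 0.345 and 0.613 CPM in ZIP+Cy, or 8 to 19 reads. In OE it was 1.15, 1.25, 1.90 and 1.02 CPM, and 1.46, 1.86, 2.21 and 1.70 CPM in OE+Cy. Treated and untreated libraries overlapped in each line. The change in Scr was −0.18, with a 95% interval of −0.66 to 0.30. In ZIP the change was 0.26, with an interval of −0.34 to 0.87, and the OE change of 0.44 had an interval of −0.03 to 0.91. Without ZIP+Cy replicate 4, the highest of its group, the change in ZIP was −0.08. Without OE replicate 3, the highest of the OE libraries, the change in OE was 0.66 (adjusted p = 0.0265).

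Rest was 1.65-fold higher in OE+Cy than in Scr+Cy (log2 0.72, SE 0.23, adjusted p = 0.0113), 2.86-fold lower in ZIP+Cy than in Scr+Cy (log2 −1.52, SE 0.26, adjusted p = 7.86e-05) and 4.71-fold higher in OE+Cy than in ZIP+Cy (log2 2.24, SE 0.26, adjusted p = 8.06e-08), and these groups did not overlap. Of 15 corepressors and regulators of REST, 1 was called lower in OE+Cy versus OE, and 2 were lower in OE+Cy than in Scr+Cy and than in ZIP+Cy (each 13.3%, where 14% and 13.6% of all genes were). The first was Rcor2, a CoREST subunit (7.49 ± 1.08 to 4.87 ± 0.58 CPM, log2 −0.62, adjusted p = 4.11e-05), which was also lower in OE+Cy than in Scr+Cy (13.4 ± 0.9 CPM, log2 −1.46, adjusted p = 3.49e-11). Of 22 neuronal genes known as REST targets, 1 was higher and 1 lower in Scr+Cy versus Scr, and 3 in each direction in OE+Cy versus OE. With the 3 libraries with high fibroblast markers omitted, 2 were lower in Scr+Cy versus Scr. Scg2, a secretogranin of dense-core granules, fell from 6492 ± 517.4 to 3016 ± 142.7 CPM in OE (log2 −1.11, adjusted p = 2.6e-12), and the potassium channel gene Kcnc1 rose from 1.44 ± 0.64 to 4.18 ± 1.93 CPM (log2 1.55, adjusted p = 6.47e-04). Under cytokines, 2 were higher and 4 lower in OE+Cy versus Scr+Cy, 4 higher and 3 lower in ZIP+Cy versus Scr+Cy, and 2 higher and 7 lower in OE+Cy versus ZIP+Cy. The first are 9.09% and 18.2% of the list (12.7% and 14% of all genes). Cplx1, a complexin, was at 1.05 ± 0.31 CPM in OE+Cy and 11.5 ± 1.2 CPM in ZIP+Cy (log2 −3.44, adjusted p = 1.98e-09), and the sodium channel gene Scn2a at 4.13 ± 1.04 and 0.58 ± 0.35 CPM (log2 2.81, adjusted p = 2.27e-08).

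**Figure D5:**
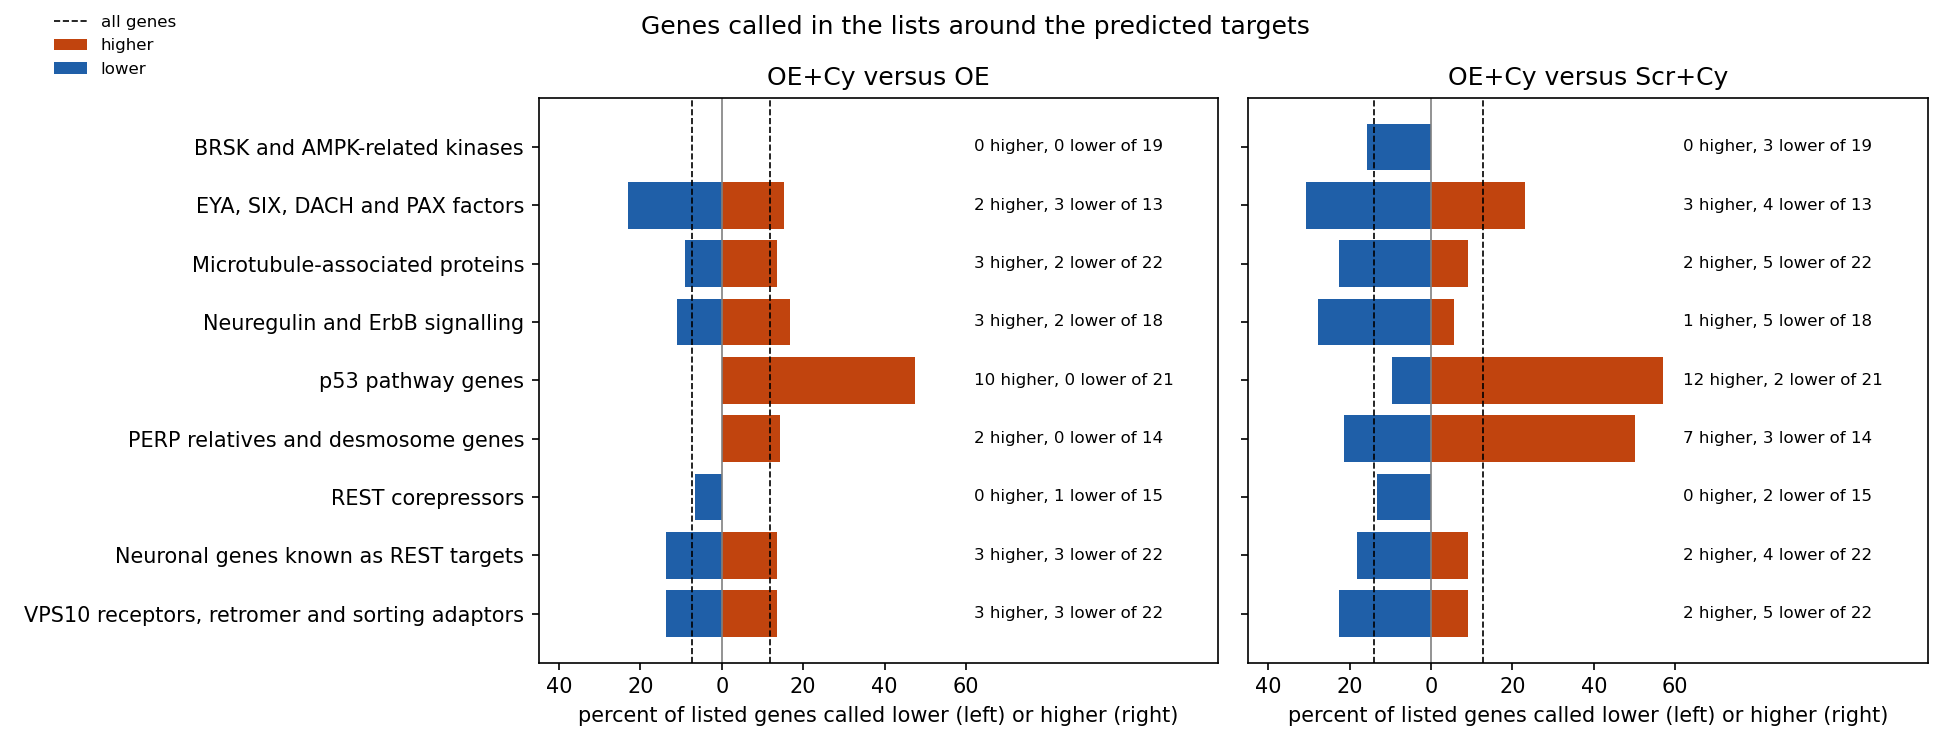
Share of the genes of each list that were called lower (bars to the left) or higher (bars to the right) in OE+Cy versus OE and in OE+Cy versus Scr+Cy, as a percent (x axis), with the counts at the right. Dashed lines mark the share over all genes. The p53 list has 10 and 12 of 21 genes called higher, and the REST corepressors 1 and 2 of 15 called lower.

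The levels of other genes followed those of the 7 closely across the 24 libraries. As a measure of likeness, Pearson's r of log2 CPM was taken over the 24 libraries and 12669 genes with a mean of at least 1 CPM, and it is given without a test, since the libraries fall into 3 lines that differ. Closest to Brsk2 were Elavl3 (0.983), Cfap20dc (0.973) and Cldn3 (0.969). Closest to Eya1 were Tmem47 (0.980), Kcnk9 (0.978) and Ptprk (0.977), and closest to Mapt were Snx25 (0.978), Pax6 (0.975) and Lingo1 (0.973). For Nrg1 they were Rcn1 (0.973), Aldh1l1 (0.972) and Pnpla7 (0.972), and for Perp Plekhg3, Birc2 (each 0.962) and Med15 (0.959). For Rest they were Top3b, Lonrf1 (each 0.956) and Rrn3 (0.951), and for Sort1 Tecpr1 (0.991), Foxp2 (0.990) and Cdk15 (0.987).

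The 27 to 130 neighbours within 5 Mb of each gene, with a mean of at least 1 CPM, had median log2 fold changes from −0.14 to 0.07 in OE+Cy versus Scr+Cy and from −0.06 to 0.02 in ZIP+Cy versus Scr+Cy. With a window of 2 Mb the medians lay from −0.13 to 0.10 and from −0.08 to −0.01. Of these 14 medians, 7 moved by more than their SD between libraries, some with a change of sign. No other gene of the table overlapped the span of any of the 7 genes.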

How the data were processed

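The 24 bulk RNA-seq libraries, in 6 groups of 4, were assigned to groups from their labels. Per the study's methods and the submitters' processing notes, reads were checked with FastQC and aligned to mm10 with STAR in Partek Flow against a RefSeq transcript annotation, and genes with fewer than 10 reads in total were removed. The notes give STAR 2.7.8a and Partek 11.0.24.0204, and the methods name other versions of both. How reads shared by several transcripts were divided, and whether strand was used, is not given in the sources used here. The values used are estimated counts that the authors deposited for each gene, with no normalization. Of them, 27.2% differed from a whole number by more than 0.001. A table of normalized values was not used.

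Estimated counts were rounded, and 1 model with 6 group means was fitted to all 24 libraries and 17696 genes in edgeR 4.0.16 (R 4.3.3, TMM, glmQLFit, glmQLFTest). Adjusted p values are Benjamini-Hochberg over all genes. Calls needed an adjusted p value under 0.05 and a fold change of at least 1.5, and interactions the former alone. The SE is the log2 fold change divided by the square root of F. Levels are CPM after TMM scaling. Untreated line differences were not tested, as the study chose the genes on them. The script was tested on simulated data. The labels carry a prefix shared by the libraries of the same replicate number in every group, and its meaning is not given. Nothing says that replicates came from separate cultures, so p values measure the spread between these libraries, which may be technical.

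Replicate numbers were checked over 12670 genes: deviations from group means correlated at over 0.1 for every number in the 3 cytokine responses (lowest 0.162) and in ZIP+Cy versus Scr+Cy (lowest 0.191), so these libraries were taken as paired by number. The main model holds no term for replicate number, so its SEs, intervals and p values are unpaired. A replicate block was fitted only as an alternative. In OE+Cy versus Scr+Cy and versus ZIP+Cy the lowest values were 0.000631 and 0.0872.

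The 7 genes and 9 lists were chosen with earlier results of these data known, so no count over them is independent support. Of the genes listed, 7 were not in the table (Six6, Pax3, Pax8, Ereg, Epgn, Trp63, Pkp1). Named beside the 7 genes are Irf1, Nos2, the 3 genes most like each of them, and per list the largest rise and fall among called genes at a mean of at least 1 CPM, over the cytokine responses and over the line differences under cytokines. A gene that this rule names is not reported here. Gene spans are those of the count table, and 3′ UTRs those of GENCODE M21 on GRCm38. Alternatives were DESeq2 1.42.0, its size factors in edgeR, filterByExpr, only the groups compared, a replicate block, other call rules, seed matches and windows, and leaving out each library. After the data were seen, the block with only the groups compared and the fit without 3 libraries, also for the lists, were added.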

Additional observations from a re-analysis of the deposited data

Results flagged for a closer look

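For 4 genes the cytokine response differed between OE and Scr in the interaction test (edgeR, adjusted p values over all genes), and the untreated libraries in it are those on which the study chose the genes. For Nrg1 the difference was 1.16 on the log2 scale (adjusted p = 0.0112), with rises in 4 of 4 numbered pairs of each line. For Mapt it was −0.75 (adjusted p = 0.0144) and for Eya1 −0.43 (adjusted p = 0.0351), with falls in 4 of 4 pairs of each line for both. The Eya1 call was lost on leaving out any of 8 single libraries (adjusted p values of 0.052 to 0.0855) and without the 3 libraries with connective tissue markers (adjusted p = 0.0677). For Perp it was 0.55 (adjusted p = 0.00254), with rises in 4 of 4 pairs of each line. No single library stood apart from the other 3 of its group by Dixon's criterion in any of the 42 combinations of gene and group.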

How the results depend on the processing

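The number of the 7 genes called was 7 under every alternative for OE+Cy versus Scr+Cy and OE+Cy versus ZIP+Cy. In Scr+Cy versus Scr it was 2 instead of 1 with no fold limit (Sort1 added) and 2 without the 3 libraries with connective tissue markers (Brsk2 added), and in ZIP+Cy versus ZIP it was 4 instead of 2 with no fold limit (Perp and Sort1 added). For the interaction of OE with Scr it was 2 instead of 4 at an unadjusted p value under 0.05 with a 1.5-fold limit, which Eya1 and Perp miss. Leaving out 1 library gave 1 to 2 in Scr+Cy versus Scr, 1 to 2 in ZIP+Cy versus ZIP, 4 to 6 in OE+Cy versus OE, 3 to 4 in ZIP+Cy versus Scr+Cy and 3 to 4 for the OE interaction. The cause was not tested. Without the 3 libraries, 19 of 54 counts over the gene lists changed, by at most 2 genes in a direction, and none of the listed genes named above lost its call or changed sign.

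The replicate block changed no call among the 7 genes, and moved the count over all genes by more than 1.5 times for the ZIP interaction alone, from 10 to 45 (84 with only the groups compared, 41 with DESeq2). With no fold limit the counts over all genes were 3151, 4674 and 7884 instead of 1340, 1717 and 3391 in the responses of Scr, ZIP and OE, and 4966, 9447 and 9558 instead of 2227, 4725 and 4830 in ZIP+Cy versus Scr+Cy, OE+Cy versus Scr+Cy and OE+Cy versus ZIP+Cy. At an unadjusted p value with a 1.5-fold limit they were 2140 instead of 3537 for the OE interaction and 583 instead of 10 for the ZIP interaction.

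Values near 0 changed sign. Mapt in ZIP+Cy versus Scr+Cy (−0.004553) was 0.008047 with DESeq2 size factors, 0.002019 with the block, 0.005827 with only the groups compared, 0.01148 with both, 0.008356 with DESeq2 and 0.06376 without the 3 libraries. Brsk2 in the OE interaction was 0.01985 without the 3 libraries. Without 1 library, Mapt in ZIP+Cy versus Scr+Cy was −0.112 to 0.06484, Nrg1 there −0.02722 to 0.1413, Rest in ZIP+Cy versus ZIP −0.0784 to 0.3862, Brsk2 in the OE interaction −0.2828 to 0.1854, and in the ZIP interaction Eya1 was −0.06762 to 0.1066 and Sort1 −0.0264 to 0.06391. Depth limits the rarest values most, since Nrg1 in OE and Rest in ZIP rest on at most 11 reads per library.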

Other observations

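The untreated line differences are given as values, without a test, since the study chose the genes on them. On the log2 scale, ZIP minus Scr was −0.72 for Brsk2, −2.04 for Eya1, 0.27 for Mapt, 0.58 for Nrg1, −1.07 for Perp, −1.96 for Rest and 0.07 for Sort1. OE minus Scr was 2.14 for Brsk2, 1.49 for Eya1, −0.95 for Mapt, −3.29 for Nrg1, 0.09 for Perp, 0.10 for Rest and −0.93 for Sort1. Perp and Rest were the 2 genes whose OE and Scr libraries overlapped without cytokines and not with them, and Mapt and Sort1 the 2 whose ZIP and Scr libraries overlapped in both conditions.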
